A study of Homo sapiens with 19 samples.

Results

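The 9 genes described here encode the D-type cyclins (CCND1, CCND2 and CCND3), the kinases that they activate (CDK4 and CDK6), and inhibitors of cyclin-dependent kinases of the Cip/Kip family (CDKN1A, CDKN1B and CDKN1C) and the INK4 family (CDKN2B). They were taken by symbol from a table of raw counts for 23441 genes, in which all 9 have a row, and peaks of HIF binding were taken from 7 lists near their start sites and, for CCND1, within 300 kb. The cells were 786-O, an established human line from a clear cell renal carcinoma that lacks functional VHL, so that HIF-2α is not degraded and is present without hypoxia, while the endogenous HIF-1α is truncated. Pools of these cells were infected with lentivirus made from the bicistronic vector pRRL.IRES.EGFP, either without an insert (control cells), with full-length HIF-1α (HIF-1α cells) or with HIF-2α (HIF-2α cells), so that every group carries a virus and keeps the VHL defect and the endogenous HIF-2α. RNA was sequenced in 3 libraries per group, 9 in all, and binding in 1 library per antiserum and group: HIF-2α and HIF-1β in each group, and HIF-1α in the HIF-1α cells. The methods state that total RNA was prepared in triplicate. Nothing in the labels or methods says that the 3 RNA libraries of a group came from separate cultures, so p-values measure the spread between these libraries, which may be technical.

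D-type cyclins bind CDK4 or CDK6 in G1, and the active kinase phosphorylates the retinoblastoma protein, which releases E2F factors and lets the cell enter S phase. INK4 proteins bind CDK4 and CDK6 directly, whereas the Cip/Kip proteins p21 (CDKN1A), p27 (CDKN1B) and p57 (CDKN1C) bind complexes of cyclin and kinase. HIF-1α and HIF-2α each pair with HIF-1β (ARNT) and bind the hypoxia response element (HRE), and in clear cell renal carcinoma CCND1 is known as a gene raised by HIF-2α through distant upstream elements.

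Library totals ranged from 27852754 to 54287621 counts. The markers PAX8, KRT8, KRT18 and VIM were expressed in all 9 libraries, at 84.9 CPM (counts scaled to a common library size, with TMM factors) or more, and the 8 markers of leukocytes, endothelium and erythroid cells were at 0.838 CPM or less, with CD3E, HBB and HBA1 at 0 throughout. PAX2, another renal marker, was at 8.53 to 26.7 CPM. HIF1A was at 30.4, 36.7 and 152 CPM in control libraries 1, 2 and 3 at 171, 1682 and 473 in the HIF-1α cells and at 15.3, 30.4 and 17.5 in the HIF-2α cells, so that control library 3 lay close to the lowest HIF-1α library (log2 fold change of HIF-1α against control cells 3.12 ± 0.71, edgeR with a replicate block, adjusted p of 0.0418). EPAS1, which encodes HIF-2α, was at 456, 224 and 162 CPM in the control cells, at 575, 627 and 397 in the HIF-1α cells and at 946, 3244 and 880 in the HIF-2α cells (log2 fold change of HIF-2α against control cells 2.48 ± 0.46, edgeR with a replicate block, adjusted p of 0.069).

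The sequences under the peaks are shown first, for the sites on which the account of binding turns. Each is a window of 300 bases on the plus strand of GRCh37, centred on the middle of a peak, with capitals for the HRE core (ACGTG or GCGTG) and for the AP-1 motif (TGACTCA or TGAGTCA) on either strand, where CACGTG counts once on each strand. The first is the region 204 kb upstream of CCND1, chr11:69251839-69252138, in an intergenic stretch, shown because it was bound by endogenous HIF-2α. The next pair comes from the site about 221 kb upstream of CCND1, also intergenic, which was in all 7 lists: chr11:69234421-69234720 under the HIF-1β peak of the HIF-2α cells and chr11:69235454-69235753 under the HIF-2α peak of the same cells. Of the peaks at this site, only this HIF-1β peak held an HRE core within 150 bp of the middle. An AP-1 motif was found there only under the HIF-2α peaks of the HIF-1α and HIF-2α cells. The peaks of the other lists held neither. The fourth, chr11:69455271-69455570, lies just upstream of CCND1 under the HIF-1α peak of the HIF-1α cells.
CCND1 upstream, HIF-2α peak of the control cells: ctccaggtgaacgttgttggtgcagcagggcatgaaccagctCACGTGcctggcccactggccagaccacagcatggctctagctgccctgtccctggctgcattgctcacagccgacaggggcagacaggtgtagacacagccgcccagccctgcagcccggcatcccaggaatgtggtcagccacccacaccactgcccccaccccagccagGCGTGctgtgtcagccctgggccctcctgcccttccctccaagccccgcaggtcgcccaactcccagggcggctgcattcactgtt
CCND1 upstream, HIF-1β peak of the HIF-2α cells: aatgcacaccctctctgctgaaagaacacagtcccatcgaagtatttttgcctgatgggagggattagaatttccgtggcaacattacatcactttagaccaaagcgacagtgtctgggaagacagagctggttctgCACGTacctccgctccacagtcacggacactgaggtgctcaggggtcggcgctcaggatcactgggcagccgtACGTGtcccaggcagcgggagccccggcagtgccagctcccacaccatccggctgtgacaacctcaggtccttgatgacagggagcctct
CCND1 upstream, HIF-2α peak of the HIF-2α cells: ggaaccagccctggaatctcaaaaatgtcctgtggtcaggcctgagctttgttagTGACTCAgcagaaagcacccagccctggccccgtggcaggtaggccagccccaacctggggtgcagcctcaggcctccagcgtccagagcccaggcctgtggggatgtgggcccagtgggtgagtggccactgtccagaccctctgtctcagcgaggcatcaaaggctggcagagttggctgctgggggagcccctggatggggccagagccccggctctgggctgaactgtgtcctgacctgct
CCND1 promoter, HIF-1α peak of the HIF-1α cells: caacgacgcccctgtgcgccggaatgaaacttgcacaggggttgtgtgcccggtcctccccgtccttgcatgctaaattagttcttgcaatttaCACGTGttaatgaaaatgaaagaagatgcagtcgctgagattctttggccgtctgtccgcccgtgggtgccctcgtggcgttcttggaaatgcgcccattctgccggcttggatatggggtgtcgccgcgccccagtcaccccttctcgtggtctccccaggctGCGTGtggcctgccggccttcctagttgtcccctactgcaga

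Windows near 3 other members follow, chosen because CDKN1C had the largest difference in RNA, CDKN1A a peak in nearly every list and CDK6 the most HIF-2α peaks. The first, chr11:2913497-2913796, in an intron of SLC22A18AS, lies under the HIF-1α peak nearest to CDKN1C. The second, chr6:36647945-36648244, in an intron of CDKN1A, lies under the HIF-2α peak of the HIF-2α cells. The last, chr7:92396044-92396343, in an intron of CDK6, lies under another HIF-2α peak of those cells.
CDKN1C upstream, HIF-1α peak of the HIF-1α cells: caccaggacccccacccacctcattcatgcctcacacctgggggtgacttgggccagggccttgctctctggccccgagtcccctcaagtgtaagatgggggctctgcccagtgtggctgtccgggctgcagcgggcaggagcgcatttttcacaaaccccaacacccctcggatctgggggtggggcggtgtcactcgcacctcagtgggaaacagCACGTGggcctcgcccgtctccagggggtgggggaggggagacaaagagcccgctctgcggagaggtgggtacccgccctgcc
CDKN1A intron, HIF-2α peak of the HIF-2α cells: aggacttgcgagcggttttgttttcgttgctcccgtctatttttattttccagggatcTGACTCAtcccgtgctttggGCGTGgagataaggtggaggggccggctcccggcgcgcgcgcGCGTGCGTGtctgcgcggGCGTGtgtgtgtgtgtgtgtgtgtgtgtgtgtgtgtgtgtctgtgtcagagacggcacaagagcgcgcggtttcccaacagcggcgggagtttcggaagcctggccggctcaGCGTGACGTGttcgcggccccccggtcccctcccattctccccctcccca
CDK6 intron, HIF-2α peak of the HIF-2α cells: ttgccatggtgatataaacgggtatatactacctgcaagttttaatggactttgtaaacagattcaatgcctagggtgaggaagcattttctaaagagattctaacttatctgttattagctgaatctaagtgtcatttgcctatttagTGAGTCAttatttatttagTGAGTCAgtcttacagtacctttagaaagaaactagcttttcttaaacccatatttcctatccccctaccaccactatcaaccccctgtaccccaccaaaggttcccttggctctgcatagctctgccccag
The window in CDKN1A holds 6 HRE cores and 1 AP-1 motif, and the one in CDK6 holds 2 AP-1 motifs and no HRE core. Of the 8 HIF-2α peaks within CDK6 in the HIF-2α cells, only 2 had an AP-1 motif within 150 bp of the middle. The window with the most is shown, so it is not typical of them. Among all peaks, an HRE core within 150 bp of the middle was found in 45.8% of the HIF-2α peaks of the HIF-2α cells and in 65.6% of the HIF-1α peaks, and an AP-1 motif in 24.7% and 7.75%. A match of letters describes the window and does not show which protein was bound there.

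In RNA, the main test (edgeR, quasi-likelihood, cell group as the only term, Benjamini-Hochberg over 14225 genes, threshold 0.05) passed none of the 7 members with enough counts to be tested, in any comparison. In the HIF-1α cells against the control cells 1 member was higher and 2 were lower at an unadjusted p under 0.05, beside 11.1% higher and 8.23% lower over all genes, and DESeq2 called 2 members, beside 5.25% of all genes. In the HIF-2α cells 0 members were higher and 1 was lower at an unadjusted p under 0.05, beside 3.35% and 2.54%, and DESeq2 called 0, beside 0.412%. Between the HIF-1α and the HIF-2α cells 2 were higher and 1 was lower at that level, beside 9.04% and 4.6%, and DESeq2 called 1, beside 4.43%. Over all genes the main test called 0%, 0% and 0.0492% in these comparisons, so that the members' counts match a background at or near 0.

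Libraries with the same replicate number deviated together, so the fit was repeated with the replicate number as a block. In this fit CCND3 and CDK4 fell and CDKN1C rose in the HIF-1α cells against the control cells, 3 of the 7 tested members, where 2.55% of all genes were called lower and 5.41% higher. No member passed in the HIF-2α cells against the control cells, where 0.112% of all genes were called higher and 0.155% lower. CDKN1C was higher in the HIF-1α than in the HIF-2α cells, against a background of 4.54% called higher and 1.38% called lower. Members whose libraries did not overlap between the groups numbered 2 of 7 in each comparison, beside 24.1%, 11.2% and 19.2% of all tested genes. They were CCND3 and CDK4 for HIF-1α against control, CDKN1B and CDKN1C for HIF-2α against control, and CDK4 and CDKN1C for HIF-1α against HIF-2α. The 3 control libraries serve in both comparisons with control cells.

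**Figure D1:**
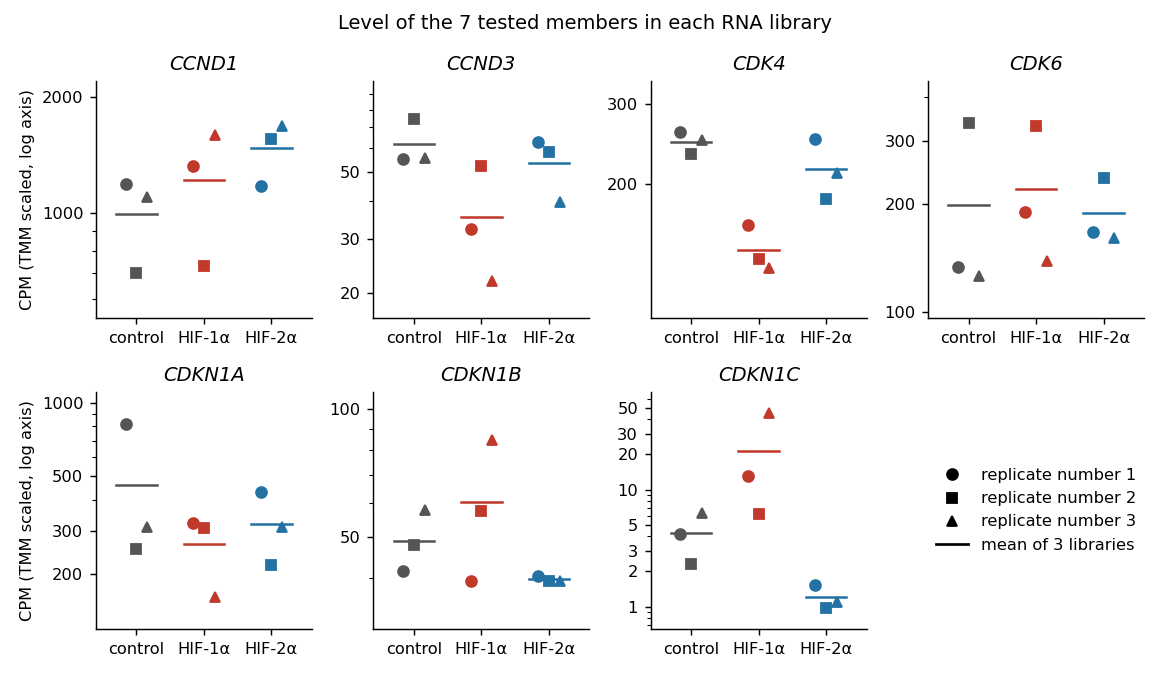
Level of each tested member (CPM, log axis) in the 9 RNA libraries, with the marker shape for the replicate number and a line for the mean of 3 libraries. CDK4 was below all control libraries in every HIF-1α library, and CDKN1C was above 6 CPM in the HIF-1α cells and below 2 CPM in the HIF-2α cells.

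CCND1 encodes cyclin D1. It was at 1191, 698 and 1099 CPM in control libraries 1, 2 and 3, at 1327, 728 and 1597 in the HIF-1α cells, and at 1172, 1559 and 1682 in the HIF-2α cells. Library 2 was the lowest of its group in the control and the HIF-1α cells but not in the HIF-2α cells, and the groups overlapped. Against the control cells, the log2 fold change was 0.56 ± 0.34 (SE, n = 3 per group, edgeR adjusted p of 0.841) in the HIF-2α cells. With the replicate block it was 0.61 ± 0.27 (edgeR adjusted p of 0.338). In the HIF-1α cells it was 0.29 ± 0.34 (edgeR adjusted p of 0.658). Within replicate numbers, the ratio of HIF-2α to control cells was 0.984, 2.23 and 1.53, and it was thus above 1 in 2 of 3 pairs.

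CCND3 encodes cyclin D3. It was at 55.0, 74.8 and 55.6 CPM in the control cells, at 32.3, 52.2 and 21.9 in the HIF-1α cells, and at 62.8, 58.1 and 39.7 in the HIF-2α cells. The HIF-1α libraries all lay below the control libraries, and the HIF-2α libraries overlapped both. The log2 fold change in the HIF-1α cells was -0.80 ± 0.32 (SE, edgeR adjusted p of 0.228) without the block and -0.87 ± 0.22 (edgeR adjusted p of 0.0454) with it. Of 12 fits with the block that each left out a replicate number or a library, 2 kept the call (those without HIF-2α library 2 or control library 1), and in the other 10 the adjusted p was 0.0575 to 0.197. Against the control cells the HIF-2α cells differed by -0.21 ± 0.32 (edgeR adjusted p of 0.923).

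CCND2, which encodes cyclin D2, had 0, 2 and 1 counts in the control cells, 0, 7 and 9 in the HIF-1α cells and 0, 0 and 1 in the HIF-2α cells. These counts are too few for a test, and CCND2 did not pass the filter. Levels of different genes can be compared only per length, here as CPM per kb of annotated exons. On this scale CCND1 made up 96.3%, 91.9% and 96.0% of the sum of the D-type cyclins in the control cells, 98.0%, 94.4% and 98.9% in the HIF-1α cells, and 95.8%, 97.0% and 98.1% in the HIF-2α cells. The means differed by 2.37 percentage points between HIF-1α and control cells and by 2.23 between HIF-2α and control cells (exact permutation test, two-sided, p of 0.3 for both, adjusted 0.45). Within replicate numbers the HIF-1α cells were higher than the control cells by 1.70, 2.53 and 2.89 points, in 3 of 3 pairs, with an SD of 0.608, and the exact sign-flip test over these pairs gave a p of 0.25, the smallest that 3 pairs allow. The HIF-2α cells differed from the control cells by -0.56, 5.15 and 2.10 points within numbers (exact sign-flip p of 0.5). Between HIF-1α and HIF-2α cells the difference was 0.145 points (exact permutation p of 1.0). With 3 against 3 libraries the permutation test without pairing cannot go below 0.1.

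CDK4 and CDK6 encode the kinases that the D-type cyclins activate. CDK4 was at 261, 233 and 250 CPM in the control cells, at 162, 137 and 131 in the HIF-1α cells, and at 251, 185 and 212 in the HIF-2α cells. Every HIF-1α library lay below every library of the other 2 groups. In such bulk RNA, fewer cells that express a gene and less RNA per cell cannot be told apart. The ratio to the control library of the same number was 0.622, 0.588 and 0.523 in the HIF-1α cells and 0.962, 0.796 and 0.847 in the HIF-2α cells. The log2 fold change in the HIF-1α cells was -0.79 ± 0.20 (SE, edgeR adjusted p of 0.149) without the block and -0.80 ± 0.16 (edgeR adjusted p of 0.0358) with it. It was called in 3 of the 12 fits with the block that left out libraries (without HIF-2α library 2, HIF-2α library 3 or control library 1), and in the other 9 the adjusted p was 0.0556 to 0.197, with the log2 fold change between -0.87 and -0.74 in all 12. DESeq2 without a block called it (adjusted p of 0.0094). Against the HIF-2α cells it differed by -0.59 ± 0.16 with the block (edgeR adjusted p of 0.0626).

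CDK6 was at 134, 337 and 126 CPM in the control cells, at 190, 331 and 139 in the HIF-1α cells, and at 168, 238 and 162 in the HIF-2α cells. Library 2 was the highest in every group, and the groups overlapped widely. The log2 fold changes against the control cells were 0.15 ± 0.43 in the HIF-1α cells (SE, edgeR adjusted p of 0.876) and -0.08 ± 0.43 in the HIF-2α cells (edgeR adjusted p of 0.984). The latter sign turned with the block, to 0.06 ± 0.21 (edgeR adjusted p of 0.914).

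CDKN1A, which encodes p21, a target of p53, was at 817, 253 and 312 CPM in the control cells, at 323, 308 and 162 in the HIF-1α cells, and at 432, 217 and 310 in the HIF-2α cells. Control library 1 stood above all others, and the groups overlapped. The log2 fold change was -0.80 ± 0.47 in the HIF-1α cells (SE, edgeR adjusted p of 0.363) and -0.53 ± 0.47 in the HIF-2α cells (edgeR adjusted p of 0.869). Without control library 1 these values became -0.099 (edgeR adjusted p of 0.899) and 0.18 (edgeR adjusted p of 0.879).

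CDKN1B, which encodes p27, was at 41.5, 47.7 and 57.8 CPM in the control cells, at 39.3, 57.6 and 84.8 in the HIF-1α cells, and at 40.3, 39.4 and 39.4 in the HIF-2α cells. The HIF-2α libraries were nearly equal and lay below the control libraries. The log2 fold change was 0.31 ± 0.27 in the HIF-1α cells (SE, edgeR adjusted p of 0.547) and -0.30 ± 0.27 in the HIF-2α cells (edgeR adjusted p of 0.869). Between HIF-1α and HIF-2α cells it was 0.61 ± 0.27 (edgeR adjusted p of 0.364).

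CDKN1C encodes p57, the product of an imprinted gene of chromosome 11, and had the largest differences of the members. It was at 4.14, 2.33 and 6.31 CPM in the control cells, at 13.2, 6.20 and 45.4 in the HIF-1α cells, and at 1.54, 0.977 and 1.11 in the HIF-2α cells. These levels rest on 82 to 242 counts per control library, 245 to 2441 per HIF-1α library and 28 to 64 per HIF-2α library. The HIF-2α libraries lay below all others, and the lowest HIF-1α library lay just below the highest control library. Within replicate numbers, the HIF-1α cells were higher than the control cells by 3.19, 2.66 and 7.21 times, and the ratio of HIF-2α to control cells was 0.372, 0.419 and 0.175.

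Between HIF-1α and HIF-2α cells the log2 fold change of CDKN1C was 4.16 ± 0.73 (SE, edgeR adjusted p of 0.0614) without the block and 3.74 ± 0.49 (edgeR adjusted p of 0.00502) with it. All 12 fits with the block that left out a replicate number or a library kept this call, with log2 fold changes of 2.89 to 4.22 and adjusted p-values of 0.00447 to 0.0351. Against the control cells, the rise in the HIF-1α cells was 2.34 ± 0.67 (edgeR adjusted p of 0.162) without the block and 2.08 ± 0.44 (edgeR adjusted p of 0.0366) with it. This call was kept in 3 of the 12 fits (without HIF-2α library 2, HIF-2α library 3 or control library 1), and the adjusted p was 0.0568 to 0.197 in the other 9, with log2 fold changes of 1.36 to 2.42 over all 12. The HIF-2α cells differed from the control cells by -1.81 ± 0.67 (edgeR adjusted p of 0.819) without the block and by -1.66 ± 0.46 (edgeR adjusted p of 0.194) with it, and passed the threshold by DESeq2 with the block (-1.65, adjusted p of 0.0104).

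**Figure D2:**
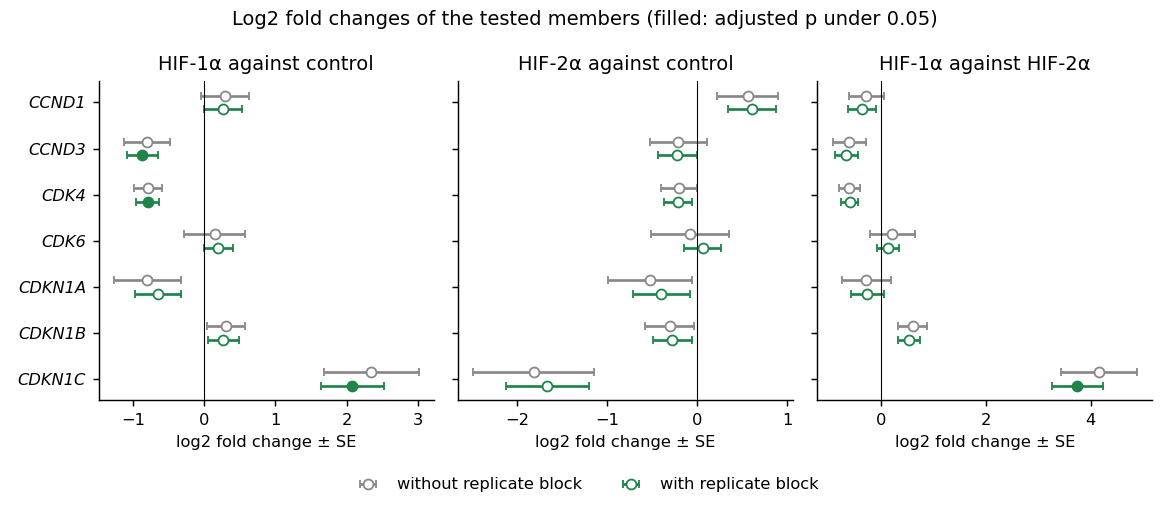
Log2 fold changes (± SE) of the 7 tested members in 3 comparisons, from edgeR without (grey) and with (green) the replicate block, filled where the adjusted p was under 0.05. With the block CCND3, CDK4 and CDKN1C passed for HIF-1α against control, none passed for HIF-2α against control, and CDKN1C passed for HIF-1α against HIF-2α.

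CDKN2B, which encodes p15, had 0 counts in all 9 libraries. Such counts do not exclude expression too low to be seen at the depth of these libraries. CDKN2A, its neighbour in the INK4 locus with a 5′ end 14.0 kb away, had at most 1 count in a library. The next genes to either side, named after their values were seen, were counted in all 9 libraries: MTAP had 1795 to 3266 counts and DMRTA1 had 281 to 1194. Exonic bases are shared with another annotated gene for CCND1 (LTO1), CDK4 (TSPAN31), CDK6 (CDK6-AS1), CDKN1A (DINOL), CCND3 and CCND2, mostly on the other strand. The library kit keeps the strand, but the strand setting of the counting is not given in the sources used here, so reads of such a partner cannot be told apart in these counts.

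Per kb of exon, the order of the mean levels in the control cells was CCND1, CDKN1A, CDK4, CDK6, CCND3, CDKN1B, CDKN1C, CCND2 and CDKN2B, with CCND1 at 209 ± 55.0 CPM per kb (SD, n = 3) and CDKN1C at 1.72 ± 0.802. In that order the ranges of CCND1 and CDKN1A, of CDKN1A and CDK4, and of CDK6 and CCND3 overlapped. In the HIF-1α cells CDKN1C, at 8.72 ± 8.44 CPM per kb, stood between CDK6 and CDKN1B, with ranges that overlapped both. In the HIF-2α cells CDKN1C was at 0.487 ± 0.119 CPM per kb, and CDKN1B, next above it, was at least 7.0 times higher in every library. The lengths count all annotated exons of a gene, and the isoforms used by these cells are not known from the counts.

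Across the 9 libraries, the genes most like each member in log2 CPM, among 10669 compared, were BTBD3 and C19orf12 for CCND1 (Pearson r of 0.892 for both), PSMD14 and TPM3 for CCND3 (0.951 and 0.945), and PPP4C and N6AMT2 for CDK4 (0.982 and 0.98). They were EPB41L2 and KPNB1 for CDK6 (0.961 and 0.943), CD163L1 and HM13 for CDKN1A (0.938 and 0.934), PRSS23 and ST6GALNAC6 for CDKN1B (0.953 and 0.944), and TOX4 and SORCS2 for CDKN1C (0.989 and 0.986). These are descriptions over libraries that share groups and replicate numbers.

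The rest of the pathway was covered by a list of 42 genes, of which 41 had enough counts. None passed with edgeR, with or without the block, or with DESeq2 without a block, in any comparison. Without the block, 1 was higher and 4 were lower in the HIF-1α cells against the control cells at an unadjusted p under 0.05, 1 was higher and 0 were lower in the HIF-2α cells, and 0 were higher and 2 lower between HIF-1α and HIF-2α cells. The shares of all genes on these rules are those given above for the members. With the block these numbers were 1 and 8, 3 and 0, and 0 and 9 of 41. Over all genes the block gave 18.7% higher and 14.5% lower in the HIF-1α cells, 7.69% and 6.84% in the HIF-2α cells, and 14.6% and 9.68% between them at this level. The median log2 fold change of the list in the HIF-1α cells against the control cells was -0.43 with the block, beside 0.04 over all genes tested. In the HIF-2α cells it was -0.05, beside -0.01, and between HIF-1α and HIF-2α cells -0.36, beside 0.01.

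The 12 replication genes that E2F factors drive (such as MCM7, a part of the replicative helicase, PCNA, the sliding clamp, and RRM2, a subunit of ribonucleotide reductase) had a median log2 fold change of -0.67 in the HIF-1α cells against the control cells with the block. All 12 values were below 0, between -0.92 and -0.42, and the smallest adjusted p was 0.0958. The 3 pairs of libraries did not share this direction. Between the libraries numbered 1, all 12 genes were higher in the HIF-1α than in the control cells, at ratios of 1.09 to 1.88, and between those numbered 2 and 3 all 12 were lower, at 0.490 to 0.745 and at 0.251 to 0.664. The HIF-2α library numbered 1 was also above control library 1 for all 12, at ratios of 1.43 to 2.54. The group of cyclins E and A with CDK2 and CDC25A had a median of -0.48 with 5 of 5 below 0, and its 5 genes were likewise higher between the libraries numbered 1, at ratios of 1.11 to 1.93, and lower between those numbered 2 and 3, at 0.664 to 0.801 and at 0.280 to 0.846. The E2F and DP factors had a median of -0.25 with 6 of 10 below 0, and the pocket proteins, which include the retinoblastoma protein, a median of 0.13. DESeq2 with the block called 5 of the 41 genes, beside 9.85% of all genes called lower, a share near the background. The 5 genes were all lower in the HIF-1α than in the control cells, among them E2F1, CKS1B, MCM7 and PCNA, at -0.96, -0.59, -0.95 and -0.95, with adjusted p-values of 0.0283 to 0.0494. DESeq2 with the block called 4 of 41 genes lower in the HIF-1α than in the HIF-2α cells, beside 4.27% of all genes, namely E2F6, TFDP1, SKP2 and RRM2, at -0.77, -0.74, -0.74 and -1.17. These genes were named after their values were seen. With control library 1 left out, edgeR with the block called 14 of the 41 genes for HIF-1α against control, all lower, beside 7.41% of all genes called lower in that fit. This fit, added after the data were seen, drops the control library in the pair where the replication genes were higher in the HIF-1α cells. The other fits with the block that left out a replicate number or a library called 0 genes of the list in this comparison.

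**Figure D3:**
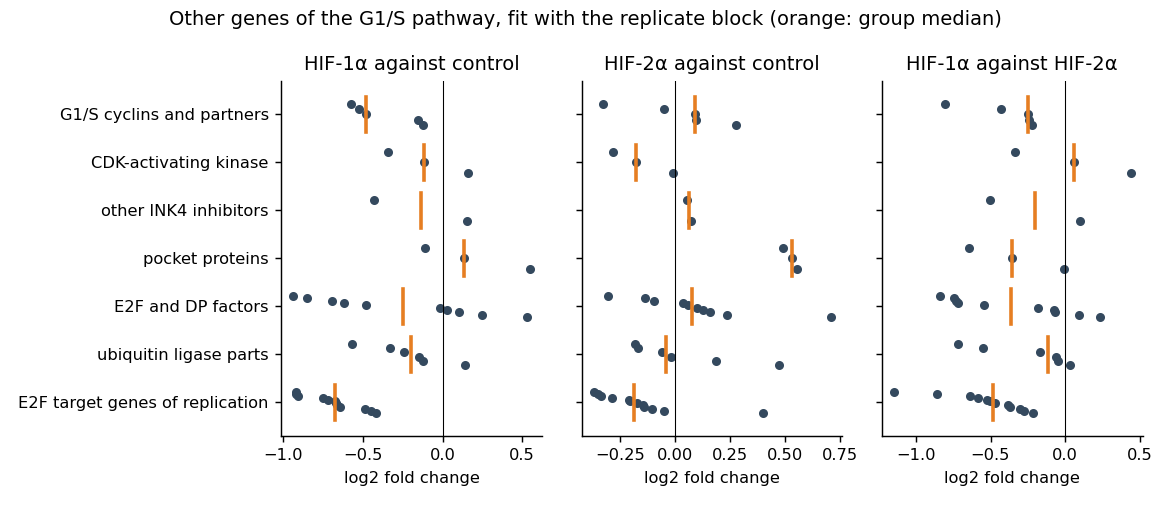
Log2 fold changes, from edgeR with the replicate block, of 41 tested genes of the G1/S pathway other than the members, by role (points) with the median of each role (orange line). All 12 E2F target genes of replication lay below 0 for HIF-1α against control, none passed the threshold, and between the libraries numbered 1 all 12 were higher in the HIF-1α cells.

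For binding, the deposited lists hold 1719 HIF-2α and 6572 HIF-1β peaks in the control cells, 5147 HIF-1α, 1350 HIF-2α and 5807 HIF-1β peaks in the HIF-1α cells, and 5283 HIF-2α and 3431 HIF-1β peaks in the HIF-2α cells. All are windows of 2500 bp without a score, with 1 library per list, so counts of peaks carry no test and move with how many peaks were called. A peak of any list lay within 10 kb of an annotated start site for 6 of the 9 members (CCND1, CDK4, CDK6, CDKN1A, CDKN1B and CDKN1C), beside 55.0% of the 13769 tested genes that could be placed on the annotation. The 9 members include CCND2 and CDKN2B, which had too few counts for a test and no peak within 10 kb. Shares of all genes for peaks, here and below, cover tested genes only.

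HIF-2α peaks within 10 kb were found at 2 members in the control cells (CDKN1A and CDKN1B), beside 5.33% of all genes, at 0 in the HIF-1α cells, beside 4.22%, and at 4 in the HIF-2α cells (CCND1, CDK6, CDKN1A and CDKN1B), beside 14.5%. HIF-1α peaks lay near 5 members (CCND1, CDK6, CDKN1A, CDKN1B and CDKN1C), beside 34.6% of all genes. HIF-1β peaks lay near 5 members in each group, beside 25.7% of all genes in the control cells, 40.8% in the HIF-1α cells and 16.2% in the HIF-2α cells. CDK4 was among them in the control and HIF-2α cells and CDKN1C in the HIF-1α cells. CCND3 and CDKN2B had no peak of any list within 50 kb.

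Around CCND1 (chr11:69455924-69469242, plus strand), 31 peaks of the 7 lists fell within 300 kb of the start and merged into 10 sites. The site 221 kb upstream, chr11:69233321-69236853, was in all 7 lists, with peak middles spread over 1033 bp. The site 204 kb upstream, chr11:69250651-69253678, was in 5 lists: HIF-2α in the control and HIF-2α cells, HIF-1β in the same cells, and HIF-1α in the HIF-1α cells. It was not in the HIF-2α or HIF-1β list of the HIF-1α cells. Both lie in intergenic sequence between CCND1 and MYEOV.

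The site at the CCND1 promoter was in 4 lists, HIF-1α and HIF-1β in the HIF-1α cells and HIF-1β in the control and HIF-2α cells, and in no HIF-2α list. Its peak middles were spread over 1297 bp. Those of HIF-1α and of HIF-1β in the HIF-2α cells lay 0.504 and 0.542 kb upstream of the start. Those of HIF-1β in the control and HIF-1α cells lay 0.63 and 0.76 kb downstream of it. The HIF-2α cells had 1 HIF-2α peak close to the gene, 13.8 kb from its start, in an intron of LTO1, where HIF-1β was also found in the control and HIF-2α cells. A site 242 kb upstream was in the HIF-1α list and the HIF-1β list of the HIF-2α cells, and holds 5 or 6 HRE cores within 150 bp of the middle. Of the 31 peaks, 16 held an HRE core and 5 an AP-1 motif within 150 bp. Among all peaks, by list, 45.8% to 68.3% held an HRE core and 4.98% to 27.5% an AP-1 motif there.

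In the lists, HIF-2α had 2 peaks within 300 kb of CCND1 in the control cells, 1 in the HIF-1α cells and 3 in the HIF-2α cells, and 15.5%, 31.4% and 26.7% of all genes had as many. HIF-1β had 9, 2 and 8 peaks, and 7.18%, 63.6% and 2.85% of all genes had as many. HIF-1α had 6, as had 18.0% of all genes.

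**Figure D4:**
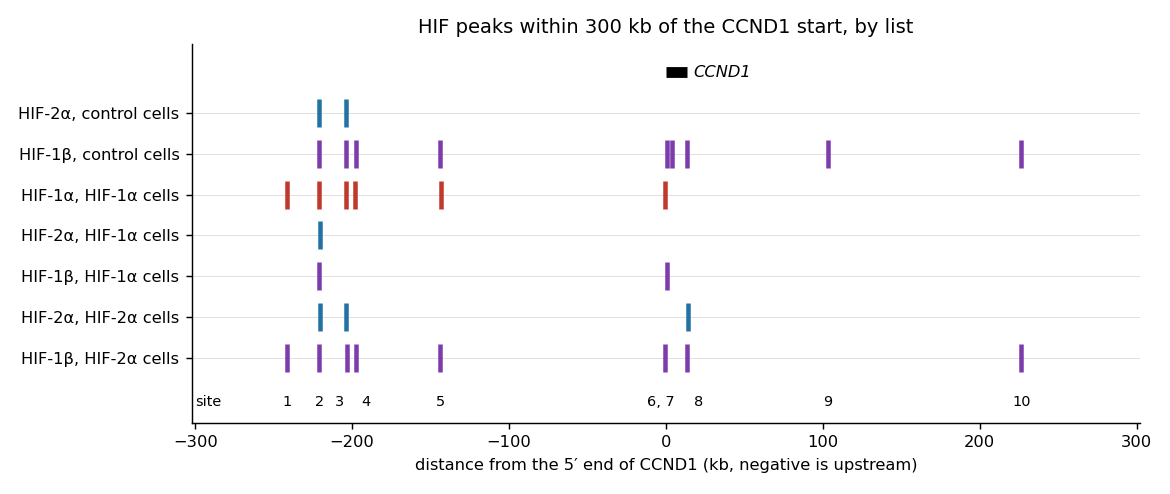
Middles of the peaks of each list (rows) by distance from the 5′ end of CCND1 (kb, negative is upstream), coloured by antiserum, with the number of the merged site at the bottom and the gene as a black bar. Site 2, 221 kb upstream, is in all 7 rows, and site 6 at the promoter is in no row of HIF-2α.

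The other genes with a row in the table and a start site within 300 kb of CCND1 were MYEOV, LTO1 (listed under its older symbol ORAOV1), FGF19, FGF4 and FGF3. The FGF genes, which encode growth factors, had 0 counts in all 9 libraries. MYEOV was at 125, 64.9 and 66.5 CPM in the control cells, at 45.2, 49.9 and 57.0 in the HIF-1α cells and at 93.5, 130 and 70.0 in the HIF-2α cells. ORAOV1 was at 21.0, 18.4 and 18.8 CPM in the control cells, at 19.5, 13.2 and 8.58 in the HIF-1α cells and at 21.6, 26.3 and 21.8 in the HIF-2α cells. All HIF-1α libraries of MYEOV lay below those of the other groups. Between HIF-1α and HIF-2α cells the log2 fold change with the block was -0.91 ± 0.30 for MYEOV (SE, edgeR adjusted p of 0.108) and -0.81 ± 0.25 for ORAOV1 (edgeR adjusted p of 0.0966), beside -0.35 ± 0.27 for CCND1 (edgeR adjusted p of 0.443).

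At CDK6 the HIF-2α cells had 9 HIF-2α peaks within 50 kb of a start site, a number that 0.0799% of all genes reached. Of these 8 lay within the gene, which spans 232 kb, and among the 1088 genes of at least 200 kb 1.01% had as many. The HIF-2α lists of the control and HIF-1α cells held no peak there. None of the 8 had an HRE core within 150 bp of the middle, 2 had an AP-1 motif, and 1 overlapped a HIF-1β peak found in those cells. The RNA of CDK6 in the HIF-2α cells did not pass the test, as given above.

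At CDKN1C the HIF-1α list held 4 peaks within 50 kb, as many as in 4.1% of all genes, at 6.64, 17.1, 27.1 and 44.0 kb upstream. Those at 6.64, 17.1 and 27.1 kb lay in introns of other genes, SLC22A18AS or SLC22A18. Of the 4 peaks, 3 had an HRE core and 2 an AP-1 motif, and 1, next to PHLDA2, shared bases with a HIF-1β peak of the HIF-1α cells. A further HIF-1β peak of these cells lay 0.48 kb from a CDKN1C start site. No HIF-2α list held a peak within 50 kb of CDKN1C, and the HIF-1β list of the HIF-2α cells held 2.

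Genes of the same domain were named after their values were seen. KCNQ1OT1, an antisense transcript of the imprinted domain of CDKN1C, was at 68.3, 84.6 and 44.2 CPM in the control cells, at 127, 216 and 120 in the HIF-1α cells and at 89.4, 179 and 96.4 in the HIF-2α cells. Every library of the HIF-1α and HIF-2α cells lay above every control library. With the block its log2 fold change was 1.21 ± 0.19 in the HIF-1α cells (SE, edgeR adjusted p of 0.0299) and 0.86 ± 0.19 in the HIF-2α cells (edgeR adjusted p of 0.117). For PHLDA2, whose product limits growth of the placenta, it was -1.16 ± 0.41 in the HIF-1α cells (edgeR adjusted p of 0.0942), and for SLC22A18 it was -0.03 ± 0.28 (edgeR adjusted p of 0.942).

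**Figure D5:**
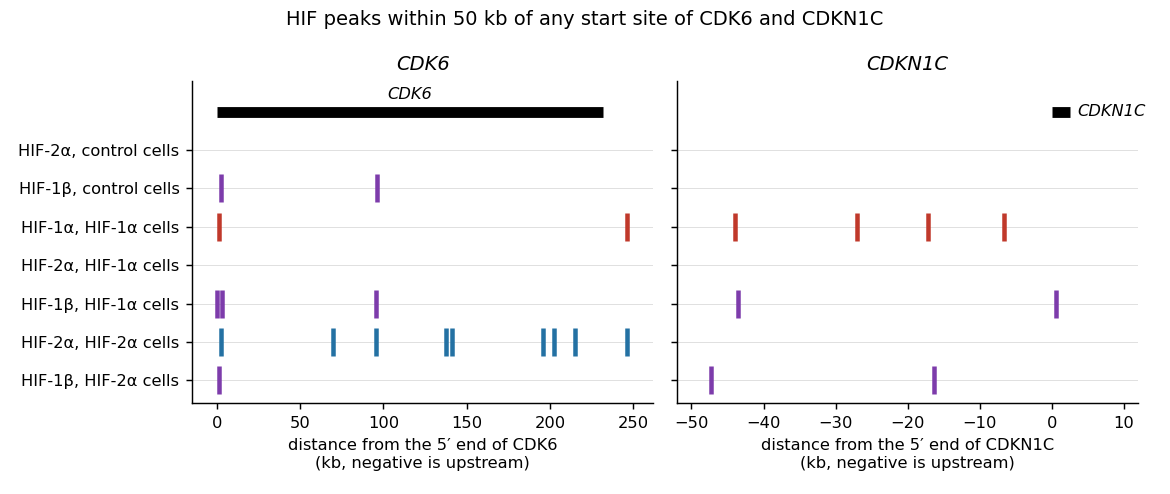
Middles of the peaks of each list within 50 kb of any start site of CDK6 (left) and CDKN1C (right), by distance from the 5′ end of the gene (kb, negative is upstream), coloured by antiserum, with the gene as a black bar. The HIF-2α list of the HIF-2α cells has 9 peaks at CDK6, and the HIF-1α list has 4 upstream of CDKN1C, where no HIF-2α list has any.

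CDKN1A had a peak within an intron, 0.55 to 1.65 kb from the nearest start site, in 6 lists, all but HIF-2α in the HIF-1α cells. The HIF-2α peaks of the control and HIF-2α cells were 1.65 and 1.55 kb from the nearest start site, with 5 and 6 HRE cores and 1 AP-1 motif each within 150 bp. The HIF-1α peak was 1.18 kb from that start, with 1 HRE core. CDKN1B had peaks of 6 lists 6.59 to 7.53 kb downstream of its nearest start site, again all but HIF-2α in the HIF-1α cells. These peaks lay in intergenic sequence, 38.95 to 39.9 kb from the 5′ end of the gene. The paper reports little change in HIF-2α signal across its endogenous sites after HIF-1α was re-expressed. It compared read signal at a fixed set of sites, whereas absence from a list here means only that no peak was called. At CDK4 the HIF-1β peaks of the control and HIF-2α cells lay 0.0 and 0.03 kb from a start site, with 4 and 6 HRE cores, and no HIF-α list held a peak within 10 kb. The nearest HIF-1α peak was 16.6 kb upstream of CDK4, in an intron of EEF1AKMT3.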

How the data were processed

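For RNA, the authors deposited 1 table of raw, whole-number counts with a column per library. Per the labels, polyA+ libraries were made with a directional kit, trimmed with Trim Galore 0.3.3, aligned to GRCh37 with TopHat2 2.0.8b and Bowtie 1.0.0, filtered for unique reads with SAMtools 0.1.19 and counted over UCSC genes with HTSeq 0.5.4p3 in its strict intersection mode. For ChIP-seq, the authors deposited peak positions, kept where T-PIC and MACS both called them against a control and where the reads exceeded random open regions. These lists carry no score, so their depth is unknown.

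Counts were analysed here with edgeR 4.0.16 (R 4.3.3): all 9 libraries in 1 fit, TMM factors, edgeR's filter on low counts, the quasi-likelihood test and Benjamini-Hochberg adjustment over 14225 genes. The members, lists and motifs were chosen with earlier results of these data known. The rule for naming genes took the members, HIF1A and EPAS1, the counted genes within 300 kb of CCND1, up to 4 called genes of the pathway list per comparison and the 2 genes most like each member among those with at least 5 CPM. After subtraction of group means, same-numbered libraries of different groups correlated at 0.348 to 0.652 across genes (9 pairs) and differently numbered ones at -0.478 to 0.0281 (18 pairs), so the replicate numbers pair the libraries, and the fit with a replicate block is given where it changes a call. DESeq2 1.42.0, another scaling, no filter, fewer libraries and each left-out library were alternatives, and fits with the block that left out libraries were added after the data were seen. The values of 1 gene of the pathway list are not reported here.

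Peaks were placed by their middle on GENCODE lifted to GRCh37. Of the 14225 genes, 13769 were placed, 892 of them through older symbols of RefSeq. Motif letters were searched on both strands of GRCh37. With 1 library per list no p-value was computed for peaks (Python 3.11.15, pandas 2.3.3, scipy 1.17.1, matplotlib 3.10.9).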

Additional observations from a re-analysis of the deposited data

Results flagged for a closer look

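CDKN1C was picked out because its response differed between the infections. The log2 fold change used to pick it is the one given here, so the p-values beside it are no independent support. All 3 HIF-1α libraries were higher and all 3 HIF-2α libraries lower than the control library of the same number, and the test of HIF-1α against HIF-2α cells gave a log2 fold change of 3.74 ± 0.49 (SE, n = 3 per group, edgeR with the replicate block, adjusted p of 0.00502). Without the block the adjusted p was 0.0614 (edgeR).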

How the results depend on the processing

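The precision of the members is set by the spread between 3 libraries per group, and that of CDKN1C in the HIF-2α cells also by its 28 to 64 counts. Peaks have 1 library per list, which cannot separate a missing peak from one that was not called.

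Members called for HIF-1α against control numbered 0 in the main fit, 3 with the replicate block, 2 with DESeq2 (5.25% of all genes), 3 with DESeq2 and the block (21.6% of all genes), and 0 to 3 over fits with the block that left out libraries (0% to 16.6% of all genes). For HIF-2α against control DESeq2 with the block called 1 (3.39% of all genes). For HIF-1α against HIF-2α the block called 1, DESeq2 1 (4.43% of all genes), DESeq2 with the block 2 (12.2%), no filter on low counts 1 (0.428%), and every fit with the block that left out libraries 1 (1.15% to 6.13%). Of the pathway list, DESeq2 with the block called 5 for HIF-1α against control (21.6% of all genes) and 4 for HIF-1α against HIF-2α (12.2%). Fits with the block that left out libraries called 0 to 14 (0% to 16.6% of all genes) and 0 to 2 (1.15% to 6.13%) in these comparisons. Any calls against control came only from the fit without control library 1. The cause was not tested.

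Signs turned only among values far from the threshold. For CDK6 in HIF-2α against control the block gave 0.063 and DESeq2 with the block 0.060 on the log2 scale, and fits that left out libraries gave -0.32 to 0.54. For CDK6 they gave -0.30 to 0.75 in HIF-1α against control and -0.23 to 0.46 in HIF-1α against HIF-2α. They gave -0.017 to 0.53 for CDKN1B in HIF-1α against control, -0.82 to 0.18 for CDKN1A in HIF-2α against control, and, in HIF-1α against HIF-2α, -0.76 to 0.099 for CDKN1A and -0.65 to 0.038 for CCND1. The difference in the CCND1 share between HIF-1α and HIF-2α cells ranged from -0.743 to 1.50 percentage points, and pairing the libraries by replicate number left that difference at 0.145 (exact sign-flip p of 1.0). Among the members, the block changed the calls of CCND3, CDK4 and CDKN1C only.

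At 5 kb from a start site, the control list of HIF-2α reached 1 member, beside 3.91% of all genes. The HIF-1α list reached 3, beside 31.5%, and the HIF-2α list of the HIF-2α cells reached 2, beside 11.8%. Counting 1 start site per gene at 10 kb, the control list of HIF-2α reached 1 member, beside 3.05% of all genes. The list from the HIF-2α cells then reached 2, beside 9.8%. Within 100 kb of CCND1, HIF-2α had 0, 0 and 1 peaks in control, HIF-1α and HIF-2α cells. In the HIF-2α cells 36.3% of all genes had at least as many. HIF-1β had 3, 1 and 2 peaks, and 15.3%, 64.9% and 14.5% of all genes had at least as many. HIF-1α had 1 peak, and 58.2% of all genes had at least as many. Within 500 bp of the middle, 27 of the 31 peaks had an HRE core and 13 an AP-1 motif. Among all peaks, by list, 79.0% to 96.8% had an HRE core and 13.9% to 47.6% an AP-1 motif at this distance.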
